A study of Rattus norvegicus with 8 samples.

Results

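Kinesins, cytoplasmic dynein and dynactin are the motor proteins and motor cofactors that move cargo along microtubules. The 56 genes described here were taken from the 26405 genes of each deposited table by their symbol: kinesin heavy chains (Kif and Kifc genes), kinesin light chains (Klc), dynein chains (Dync and Dynl), dynactin subunits (Dctn, Actr1a and Actr1b) and the dynein regulators Pafah1b1 and Nde1. No measured value entered that choice. By role they comprised 19 transport motors, 11 mitotic kinesins, 10 other kinesins, 8 dynactin subunits, 5 dynein light chains, 2 dynein regulators and 1 subunit of ciliary dynein (Dync2li1). The tables leave the symbol blank for 15 more rows of the family, among them Kif1a, Kif5c and the dynein heavy chain Dync1h1, which were found through their Entrez identifiers. Of these rows, 1 is a second row of Kif22, which is also a member by its symbol. Their values are given where they bear on a result, and they are in none of the counts of members.

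The RNA came from hippocampal neurons of rat embryos, cultured for 10 to 14 days in microfluidic chambers, in which axons grow into a compartment of their own. The axons alone were exposed for 24 h to Abeta(1-42), an amyloid peptide given as soluble oligomers, or to vehicle in the control samples, and RNA was then taken from the axonal and from the cell body (somatic) compartment. There were 4 groups (axons Abeta, axons control, soma Abeta and soma control) of 2 samples each. Nothing in the labels says that the samples of a group came from separate cultures, so the p-values reflect only how these samples vary, and that variation may be technical. No strain is given in the sources used here.

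In an axon, kinesins carry vesicles, mitochondria and RNA granules outward to the plus ends of microtubules, and cytoplasmic dynein, working with its cofactor dynactin, carries endosomes and signalling complexes back to the cell body. Another set of kinesins builds and moves the mitotic spindle. Mature neurons have left the cell cycle, so these mitotic kinesins are best known from dividing cells, although some of them also act on microtubules in growing neurites.

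The authors' deposited tables compare the treatments within each compartment, but leave the numerator unnamed. The side of a gene is therefore the sign of its deposited log2 fold change, positive or negative, and neither can be read as Abeta or control. Each deposited mean is an average of 4 libraries, and the reads of each library could be recovered from its digits. These libraries could not be tied to a sample title, so they are called positive-side library 1 and 2 and negative-side library 1 and 2 (1 has the larger size factor), and their values, in normalised counts, enter no test. The positive-side axonal libraries held 421141 and 420659 recovered reads, against 291020 and 229815 in the negative-side ones. Depth thus ran with side in axons, and its part in the axonal fold changes was not tested. A somatic library held 262493 to 3649469 recovered reads. All 56 members had axonal reads and 54 had somatic reads.

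Among the motor genes, 1 transcript was called in axons, the kinesin-3 motor Kif1c, and that call depended on the set of genes used for adjustment. By the authors' adjusted p (DESeq2, Benjamini-Hochberg) under 0.05, 1 of the 14 members with an adjusted p was called, on the positive side, where 23.0% of all 1321 genes with an adjusted p were called (8.78% on the positive side, and 11.2% among genes with a symbol). The authors' table gives an adjusted p only to genes with a mean of at least 44.8 normalised counts, which left out 42 members, all the mitotic kinesins among them. At an unadjusted p under 0.05 there were 3 members, Kif1c, Kif11 and Dynlt3, 2 on the positive side (Kif1c, Dynlt3) and 1 on the negative (Kif11), against 4.45% of the 23879 genes with axonal reads (1.86% positive, 2.59% negative). In soma 0 of 54 members were called (DESeq2; 0 also at an unadjusted p under 0.05), against 0% and 0.0105% of the 18995 genes with somatic reads.

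Kif1c (ENSRNOG00000031364) moves vesicles and messenger RNA toward microtubule plus ends. It had 77.1 and 122 normalised counts in the positive-side axonal libraries, against 21.0 and 25.7 on the other side (102 and 156 reads against 20 and 19), so the sides were well apart. The authors' deposited table gives it a log2 fold change of 1.93 (standard error 0.58, adjusted p = 0.0120, DESeq2), which is 3.80-fold with a 95% interval of 1.73 to 8.34. In soma it stood at 133 and 104 normalised counts against 133 and 144, with a deposited log2 fold change of -0.17 (standard error 0.47). Its axonal and somatic log2 fold changes differed by 2.09 (SE 0.75, unadjusted p = 0.00501). That difference missed the threshold after Benjamini-Hochberg adjustment over all genes with both fold changes (the smallest adjusted p of a member was 1.00). The axonal call itself was lost when p-values were adjusted over all genes with reads (adjusted p = 0.184) or over those whose mean reached 10 (adjusted p = 0.0639).

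Marker genes of other cell types were also measured in these axonal libraries. Astrocyte markers summed to 3569 and 3994 normalised counts in the positive-side libraries, against 635 and 1036, and none of the 10 measured was at 0. Of the 7 with an adjusted p, 6 were called positive (DESeq2), against 8.78% of all 1321 genes with one (11.2% among genes with a symbol). Gfap and Vim held most of the astrocyte sum. By deposited log2 fold change 9 lay above 0 and 1, Slc1a2, below it at -0.82. Fibroblast and meningeal markers summed to 350 and 764 against 127 and 136 normalised counts. Of the 7 measured, 2 had an adjusted p, and both were called positive. Those 2, Col1a1 and Col1a2, held most of the sum, and the other 5 lay below 0, for a list median of -0.15. Neuronal markers overlapped between the sides, at 630 and 737 against 424 and 828. Of the 5 with an adjusted p, 0 were called (DESeq2), and 0 of 9 had an unadjusted p under 0.05. The part of other cell types in the Kif1c result was not tested, and in such bulk RNA fewer cells of a type cannot be told apart from less RNA per cell.

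The promoter of Kif1c is shown beside those of Kif11, Kif23 and Kif4a, 3 mitotic kinesins, because the results below set these classes against each other. Promoter sequences came from RefSeq (assembly GRCr8) and were matched for 42 of the 56 members. The build used for the counts is not given in the sources used here. Each line runs 5′ to 3′ on the gene's strand over the 250 bases before the annotated start. Capitals mark 3 motifs on either strand: the GC box (GGGCGG or CCGCCC), the CCAAT box (CCAAT or ATTGG) and the cell-cycle homology region, called CHR (TTTGAA or TTCAAA). The regions are chr10:55912843-55913092 (plus strand) for Kif1c, chr1:244536617-244536866 (plus) for Kif11, chr8:71320585-71320834 (minus) for Kif23 and chrX:69761633-69761882 (plus) for Kif4a.
Kif1c: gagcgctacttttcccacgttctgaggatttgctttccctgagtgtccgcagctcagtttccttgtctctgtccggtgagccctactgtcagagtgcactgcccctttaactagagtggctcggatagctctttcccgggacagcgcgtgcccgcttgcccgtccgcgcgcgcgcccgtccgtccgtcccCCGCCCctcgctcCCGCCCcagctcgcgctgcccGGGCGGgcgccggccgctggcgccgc
Kif11: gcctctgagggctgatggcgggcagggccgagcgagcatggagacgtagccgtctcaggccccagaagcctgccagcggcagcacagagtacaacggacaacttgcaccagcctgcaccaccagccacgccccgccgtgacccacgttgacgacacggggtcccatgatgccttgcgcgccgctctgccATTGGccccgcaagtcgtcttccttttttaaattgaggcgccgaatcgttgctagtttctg
Kif23: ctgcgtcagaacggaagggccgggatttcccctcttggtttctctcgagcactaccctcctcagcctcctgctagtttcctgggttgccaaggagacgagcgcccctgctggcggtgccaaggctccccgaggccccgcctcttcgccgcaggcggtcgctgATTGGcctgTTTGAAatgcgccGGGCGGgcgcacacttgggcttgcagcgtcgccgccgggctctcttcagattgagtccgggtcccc
Kif4a: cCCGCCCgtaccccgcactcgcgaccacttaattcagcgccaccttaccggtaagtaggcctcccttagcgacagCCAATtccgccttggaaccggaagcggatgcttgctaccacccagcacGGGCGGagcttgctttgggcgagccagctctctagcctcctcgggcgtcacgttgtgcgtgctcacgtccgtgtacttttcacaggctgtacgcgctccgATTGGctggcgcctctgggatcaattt

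Kif1c carried 3 GC boxes within these bases, at 26, 47 and 60 bases before its start, and neither of the other motifs. Kif23 carried all 3 motifs, with its CCAAT box 88 and its CHR 79 bases before the start. Kif11 carried 1 CCAAT box, 61 bases before the start, and Kif4a had 2, at 27 and 175 bases. Over the whole 300-base window (250 before to 50 after the start), the CHR letters were found in 5 of 9 matched mitotic kinesins (Kif15, Kif20b, Kif23, Kif4a and Kifc1) and in 0 of 16 matched transport motors, against 18.3% of all 33469 promoters. The match in Kif4a lies after its start, outside the bases shown. CCAAT letters stood in 6 of 9 mitotic and 4 of 16 transport promoters, against 37.5% of all. GC boxes were frequent in both classes, in 7 of 9 and 15 of 16, against 33.1% of all promoters. Base composition differed too. The median share of G and C was 64.3% for mitotic kinesins and 68.2% for transport motors, against 51.7% for all promoters. The motif shares were not adjusted for it. These matches describe the letters in the window and do not show that a factor binds there.

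The kinesin-1 heavy chains are the main carriers of mitochondria and vesicles along axons. Kif5a, the neuronal form, had 177 and 171 normalised counts in the positive-side axonal libraries, against 162 and 146. The sides did not overlap, but the gap was small, and the authors' deposited table gives a log2 fold change of 0.17 (standard error 0.43, adjusted p = 0.814, DESeq2). Kif5b, the form present in most cells, had 55.9 and 64.2 against 35.7 and 43.2 normalised counts, also apart, with a deposited log2 fold change of 0.56 (standard error 0.58, adjusted p = 0.546, DESeq2). Kif5c, which is named only through its Entrez identifier, had 200 and 175 against 92.4 and 103, with a deposited log2 fold change of 0.90 (standard error 0.45, adjusted p = 0.151, DESeq2). All 3 had higher values in each positive-side axonal library, and none passed the test. The same order of libraries held for 1010 of 2079 genes with a symbol at somatic means of 100 to 1000 and an axonal mean of at least 10. In soma the deposited log2 fold changes were -0.22 for Kif5a, -0.21 for Kif5b and -0.07 for Kif5c.

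Kinesin light chains link the kinesin-1 heavy chains to cargo. Klc1, the one with an adjusted p, had 96.0 and 149 normalised counts in the positive-side axonal libraries, against 78.8 and 82.4. Its sides were apart, and the authors' deposited table gives a log2 fold change of 0.57 (standard error 0.50, adjusted p = 0.457, DESeq2). Klc2 had 26.5 and 39.1 against 25.2 and 47.3, and Klc4 13.6 and 19.6 against 13.7 and 17.6, so their sides overlapped. Klc3 had few reads, at 5.29 and 2.35 against 6.30 and 6.75 normalised counts in axons, and in soma it was listed with reads in 1 library alone (0.674).

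Kinesin-2 and kinesin-3 motors carry vesicles, late endosomes and ciliary cargo, and were listed together with Kif21a and Kif21b, kinesin-4 motors that also limit microtubule growth. Kif3c, a neuronal kinesin-2 that pairs with Kif3a, had 59.0 and 97.0 normalised counts against 32.6 and 71.6 in axons, with a deposited log2 fold change of 0.54 (standard error 0.59, adjusted p = 0.563, DESeq2), and the sides overlapped. Kif3a and Kif3b, which also pair with each other, had deposited log2 fold changes of -0.37 and 0.33, at 44.6 and 30.5 against 32.6 and 67.5 for Kif3a (overlapping) and 37.0 and 34.4 against 33.6 and 21.6 for Kif3b (apart by under 1 count). Kif21a had 51.4 and 60.3 against 51.5 and 29.7 normalised counts, and Kif21b 55.9 and 36.8 against 50.4 and 44.6. Both overlapped, with adjusted p = 0.675 and 0.977 in the authors' deposited table (DESeq2).

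Within kinesin-3 the values were spread widely. Kif13a, which carries receptors and lysosomal proteins, had 36.3 and 25.8 against 55.7 and 39.2 normalised counts, the single transport motor with a mean of at least 10 whose sides were apart with the negative side higher. Kif16b, a motor of early endosomes, had 7.56 and 12.5 against 11.6 and 27.0, and Kif13b 15.9 and 17.2 against 30.5 and 10.8, with overlap in both. Kif1a, the synaptic vesicle precursor motor named through its Entrez identifier, had 399 and 439 against 308 and 231. The authors' deposited table gives Kif1a a log2 fold change of 0.61 (standard error 0.40, adjusted p = 0.301, DESeq2), and its sides were apart.

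**Figure D1:**
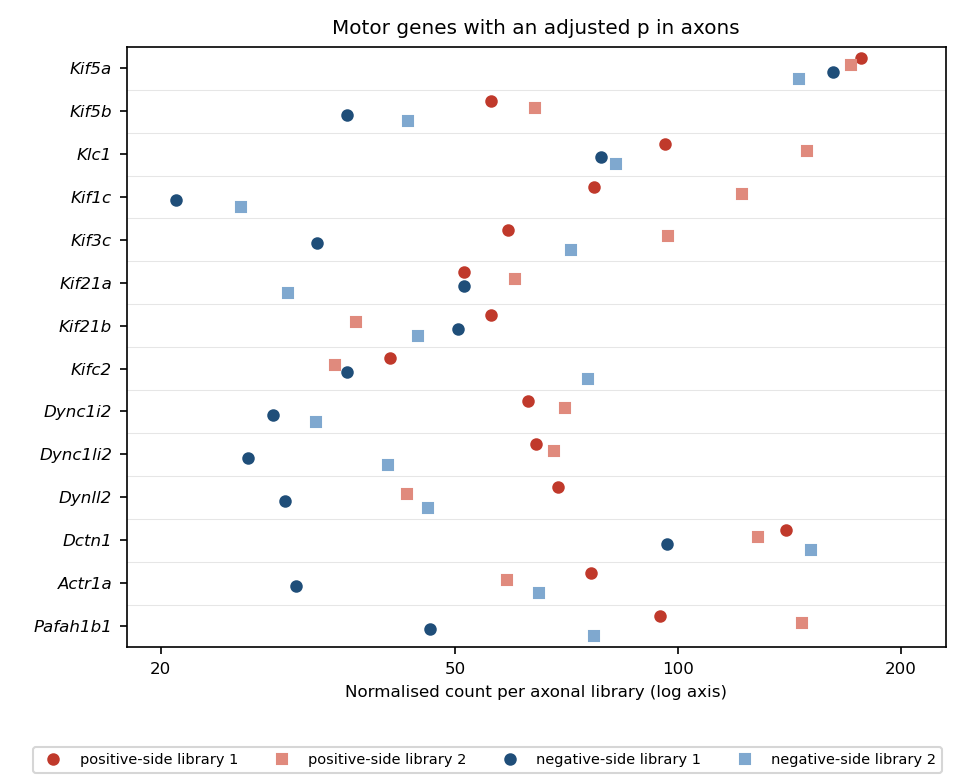
Normalised counts in each of the 4 axonal libraries (horizontal log axis) for the 14 motor genes with an adjusted p in axons; red marks are the positive-side libraries, blue marks the negative-side ones, circles library 1 and squares library 2 of a side. Kif1c stands at 77.1 and 122 against 21.0 and 25.7, while the sides of Dctn1, Kif21a, Kif21b and 4 other genes overlap.

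The cytoplasmic dynein-1 chains measured were the intermediate chains, which bind dynactin, and the light intermediate chains, which bind cargo adaptors. Dync1i2 had 62.7 and 70.4 normalised counts in the positive-side axonal libraries, against 28.4 and 32.4. The authors' deposited table gives it a log2 fold change of 1.04 (standard error 0.59, adjusted p = 0.221, DESeq2). Dync1li2 was similar, at 64.2 and 68.1 against 26.3 and 40.5, with a deposited log2 fold change of 0.91 (standard error 0.59, adjusted p = 0.301, DESeq2). Dync1li1 had 22.7 and 27.4 against 14.7 and 12.2 normalised counts. Sides were apart in these 3, but in Dync1i1, the neuronal intermediate chain, they overlapped at 34.0 and 26.6 against 23.1 and 54.0. At somatic means of 100 to 1000, where these chains lay, 1010 of 2079 genes with a symbol and an axonal mean of at least 10 were apart with the positive side higher. The heavy chain Dync1h1, found by Entrez identifier, had 232 and 293 against 195 and 219 and a deposited log2 fold change of 0.33 (standard error 0.41, adjusted p = 0.616, DESeq2).

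Dynein light chains are small subunits that help assemble the complex, and several also bind other proteins. Dynlt3 had 15.1 and 21.1 normalised counts against 4.20 and 1.35 in axons, from 20 and 27 reads against 4 and 1. The deposited log2 fold change was 1.93 (SE 0.94, unadjusted p = 0.0408, DESeq2) and no adjusted p is given, so it was not called. Dynlrb1 had 31.7 and 32.1 against 10.5 and 23.0, also apart, with a deposited log2 fold change of 0.81 (standard error 0.74). Dynll2 had 68.8 and 43.0 against 29.4 and 45.9 and overlapped (log2 fold change 0.52, SE 0.61, adjusted p = 0.592, DESeq2, authors' deposited table), as did Dynlt1 at 21.2 and 7.83 against 9.45 and 5.40. Dynlrb2, which is known from ciliated cells, was listed at 0 in library 2 of both sides.

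Dynactin activates dynein and holds it on its cargo, with Dctn1 (p150Glued) as the arm that grips the microtubule and Actr1a as the main subunit of the filament. Dctn1 had 140 and 128 normalised counts against 96.6 and 151 and Actr1a 76.3 and 58.7 against 30.5 and 64.8, so both overlapped. Their deposited log2 fold changes were 0.11 (SE 0.47, adjusted p = 0.888, DESeq2) and 0.47 (SE 0.59, adjusted p = 0.617, DESeq2). Dctn2 (dynamitin), which joins the arm to the filament, had 40.1 and 83.7 against 24.2 and 24.3, with sides apart and a deposited log2 fold change of 1.22 (standard error 0.64, unadjusted p = 0.0575). Dctn4 had 25.7 and 86.9 against 22.1 and 41.9 normalised counts. Actr1b was apart at 23.4 and 34.4 against 16.8 and 21.6. The subunits Dctn5, Dctn6 and Dctn3 (the row named Dctn3l1) had means of 9.71 to 13.2 normalised counts, and their sides overlapped.

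Pafah1b1 (LIS1), which lets dynein start and bear load, had 94.5 and 147 normalised counts against 46.2 and 77.0 in axons. Its sides were apart, with a deposited log2 fold change of 0.91 (standard error 0.53, adjusted p = 0.233, DESeq2). Nde1, which recruits Pafah1b1 to dynein and also serves cell division, had 3.78 and 0 against 13.7 and 4.05. Ndel1, its neuronal relative, found by Entrez identifier, had 21.2 and 14.1 against 15.8 and 12.2, and its sides overlapped.

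Mitotic kinesins had few reads in axons, with means of 0.918 to 10.3 normalised counts. Kif11 (Eg5), which pushes spindle poles apart, had 0.756 and 0.783 normalised counts in the positive-side axonal libraries, against 16.8 and 10.8, that is 1 and 1 reads against 16 and 8. The sides were far apart. The authors' deposited table gives a log2 fold change of -2.59 (standard error 1.01, unadjusted p = 0.0102, DESeq2) with no adjusted p. In soma Kif11 had 11.1 and 16.8 against 17.1 and 6.26, with a deposited log2 fold change of 0.04 (standard error 0.58). Its axonal and somatic log2 fold changes differed by -2.63 (unadjusted p = 0.0238), which did not pass the adjustment. Against a share of 2.60% of all 18406 genes with both fold changes, 2 of 54 members (Kif1c and Kif11) had an unadjusted p under 0.05 in that test of the difference between compartments. After adjustment 0 of 54 passed, against 0.0326% of all genes.

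The other mitotic kinesins with the most reads lay on the negative side in axons without passing the test. Kif23, a motor of the central spindle, had 3.78 and 11.0 normalised counts against 15.8 and 10.8, where the sides overlapped. Kif18b, which shortens astral microtubules, had 9.07 and 3.91 against 11.6 and 16.2 and did not overlap. Kif20a, needed for cytokinesis, had 8.31 and 8.61 against 3.15 and 20.3. Kif20b had 5.29 and 0 against 9.45 and 18.9, and Kif4a, a chromosome-arm motor, 1.51 and 6.26 against 7.35 and 16.2. Kif15, Kif18a, Kif2b and Kifc1 had deposited log2 fold changes above 0 (0.09 to 0.56), and Kif22 stood at -0.86. Kif2c, a microtubule depolymerase found by Entrez identifier, had 0.756 and 0 against 8.40 and 8.10 normalised counts, with a deposited log2 fold change of -2.12 (standard error 1.06, unadjusted p = 0.0453, DESeq2).

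**Figure D2:**
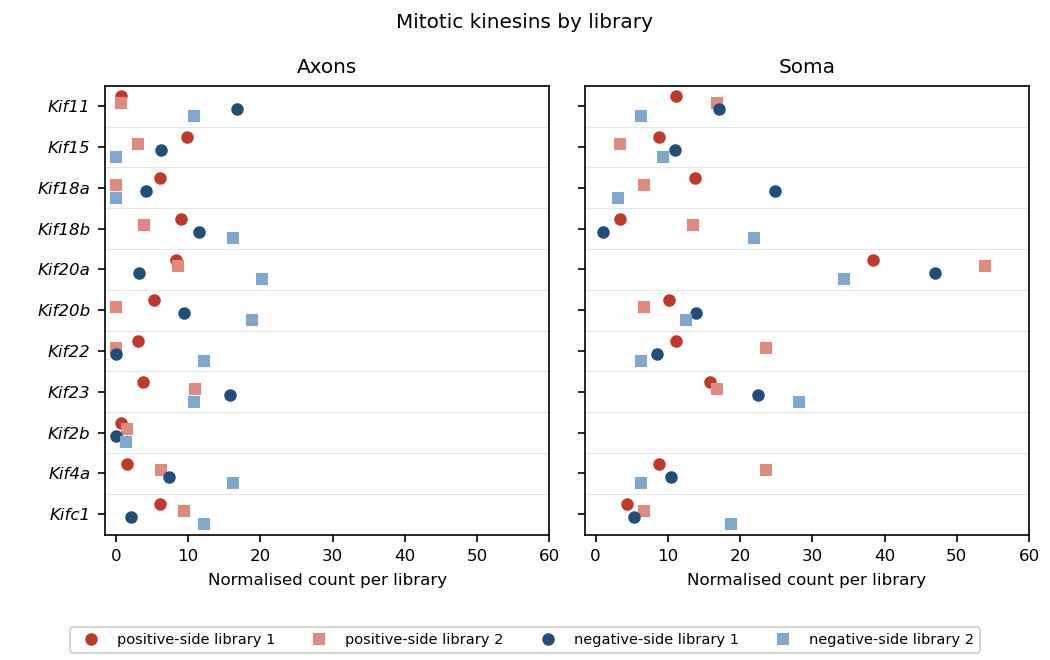
Normalised counts (horizontal axes) of the 11 mitotic kinesins in the 4 axonal (left) and 4 somatic (right) libraries, with red marks for the positive side and blue for the negative side. Kif11 stands at 0.756 and 0.783 against 16.8 and 10.8 in axons and overlaps in soma, and Kif2b has no somatic reads.

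Among the other kinesins, Kifc2, a minus-end kinesin of neurons, had the highest axonal mean, with 40.8 and 34.4 normalised counts against 35.7 and 75.6. Its deposited log2 fold change was -0.51 (SE 0.62, adjusted p = 0.606, DESeq2), and the sides overlapped. Kifc3, which serves epithelial junctions and the Golgi, had 31.7 and 46.2 against 27.3 and 25.7, and Kif24, a ciliary depolymerase, 5.29 and 9.39 against 12.6 and 28.4. These were the 2 of this class with a mean of at least 10 and sides apart, in opposite directions. Kif26b had 18.9 and 14.1 against 13.7 and 27.0 normalised counts. Kif9, a kinesin of motile cilia, had 4.54 and 3.91 against 1.05 and 33.8, so 1 library held most of its reads.

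The axonal fold changes of transport motors and mitotic kinesins had medians on opposite sides of 0 as deposited, a description with no test. The median deposited log2 fold change was 0.17 for the 19 transport motors (11 above 0, 8 below) and -0.64 for the 11 mitotic kinesins (4 above, 7 below). Dynactin stood at 0.31 (6 above, 2 below), the dynein light chains at 0.72 (4 above, 1 below) and the other kinesins at -0.35 (3 above, 7 below). As a ratio of recovered counts, the median of the other kinesins was -0.16 without negative-side library 1 and 0.16 without negative-side library 2. By that measure the transport motor median was 0.18, but 0.31 without positive-side library 1 and 0.27 without negative-side library 2. On the same scale the dynactin median was 0.34, but 0.076 without negative-side library 1 and 0.95 without negative-side library 2. That of the dynein light chains was 0.91, but 0.19 without positive-side library 1 and 1.35 without negative-side library 1. That of the mitotic kinesins was -0.81, but -1.21 without negative-side library 1, -0.59 without positive-side library 2 and -0.42 without negative-side library 2. All genes with a symbol had a median of -0.09. These medians moved with abundance: genes with a symbol had a median of -0.38 at somatic means of 1 to 10, 0.01 at 10 to 50, 0.28 at 50 to 100 and 0.46 at 100 to 1000. The median somatic mean was 178 for the transport motors and 12.1 for the mitotic kinesins. When the median of the 2683 genes whose somatic mean reached 100 (0.44) was set to 0, the medians of the transport motors and of dynactin changed sign, to -0.27 and -0.13. The dynein light chains stayed above 0 at 0.28. On that scale 7 of 19 transport motors and 1 of 11 mitotic kinesins lay above 0. Among genes with a symbol, 417 of 2928 at somatic means of 1 to 10 and 1425 of 4950 at 10 to 50 did so. At 50 to 100 the count was 866 of 2158, and at 100 to 1000 it was 1091 of 2102.

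**Figure D3:**
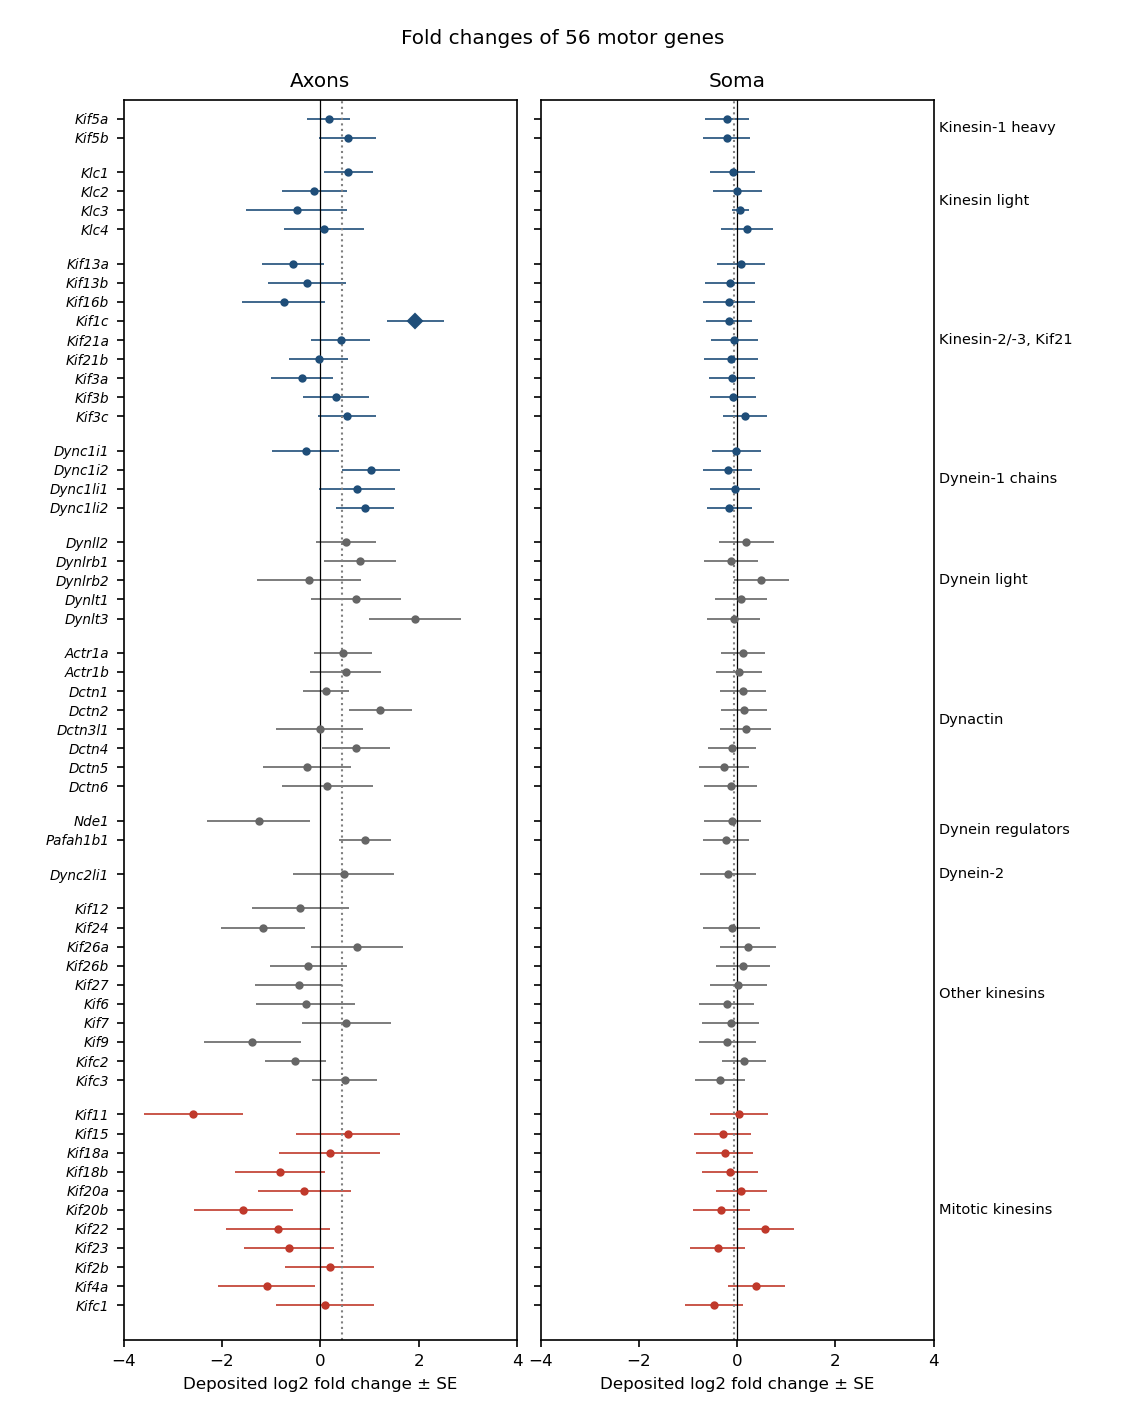
Deposited log2 fold change of each of the 56 motor genes (points, horizontal axes, signs as deposited) with its standard error (bars) in axons (left) and soma (right), by class, with transport motors in blue, mitotic kinesins in red and the others in grey; the diamond marks the called Kif1c and dotted lines the median of the 2683 genes whose somatic mean reached 100 (0.44 in axons, -0.061 in soma). Kif1c stands at 1.93 and Kif11 at -2.59 in axons, and the somatic points of all classes lie between -0.47 and 0.58. As log2 ratios of recovered counts, Kif11 stands at -3.49 in axons, and Kif22 at 1.17 and Kifc1 at -1.05 in soma.

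The number of members whose sides were apart can be read against all genes. Of the 40 members with an axonal mean of at least 10, 14 had both positive-side libraries above both negative-side ones, against 32.1% of genes with a symbol (30.7% of all genes), and 3 had the reverse, against 17.5% (18.9%). For the transport motors the counts were 8 and 1 of 18. These shares moved with abundance. With the same limit on the axonal mean, genes with a symbol had 1010 and 124 of 2079 at somatic means of 100 to 1000. At somatic means of 50 to 100 they had 642 and 208 of 1865. The median somatic mean of the transport motors was 178. Among the 47 members with a somatic mean of 10 or more, 2 were apart with the positive side higher (Kif22 and Kif3c) and 5 with the negative side higher (Kif16b, Kif1c, Kif20b, Kif23 and Kifc3), against 7.75% and 7.10% of genes with a symbol (7.42% and 8.27% of all genes).

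Summed levels, which rest on the same counts as the medians, had the same order of sides for transport motors and mitotic kinesins. They were not centred on well-expressed genes. The 19 transport motors summed to 943 and 1075 normalised counts in the positive-side axonal libraries, against 733 and 820. The 11 mitotic kinesins summed to 54.4 and 44.6 against 76.7 and 119, so the sides were apart in the opposite direction. In soma both sums overlapped, at 4039 and 3408 against 4280 and 3860 for the transport motors and 126 and 172 against 162 and 147 for the mitotic kinesins. The dynein light chains summed to 144 and 104 against 64.1 and 75.6 in axons. Dynactin summed to 338 and 426 against 214 and 351, so its sides overlapped.

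Genes of the same pathways that are not motors were set beside them. Of 30 adaptors and cargo linkers, 27 were found, with a median axonal log2 fold change of 0.32 and 18 above 0, and 0 of the 11 with an adjusted p were called (DESeq2; 0 also at an unadjusted p under 0.05). Among genes with a symbol, 1447 of 2158 at somatic means of 50 to 100 and 1670 of 2102 at 100 to 1000 lay above 0. Of 20 proliferation genes that are not motors, 16 were found, and 15 of these lay below 0 in axons with a median of -0.87. Among genes with a symbol, 2028 of 2928 at somatic means of 1 to 10 and 2458 of 4950 at 10 to 50 lay below 0. The proliferation genes summed to 85.4 and 50.9 normalised counts on the positive side, against 178 and 153, and none was at an unadjusted p under 0.05. In soma the same genes summed to 210 and 306 against 254 and 335.

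Other low transcripts were set beside the mitotic kinesins. The 3126 genes with a symbol that had axonal but no somatic reads summed to 5853 and 2694 normalised counts on the positive side, against 11199 and 9220, with a median log2 fold change of -0.40. Their axonal means ran from 0.378 (10th percentile) to 5.07 (90th), a range that held 4 of 11 mitotic kinesins and 0 of 19 transport motors. Microglia markers summed to 73.3 and 31.3 against 119 and 182, and endothelial and mural markers to 12.1 and 7.83 against 52.5 and 39.2. Oligodendrocyte lineage markers, as low, overlapped at 63.5 and 44.6 against 74.6 and 33.8, with 5 of 8 above 0. What part these had in the mitotic kinesin values was not tested.

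Axonal and somatic levels were set side by side as shares of the summed means of genes with a symbol in each table. The tables were normalised separately, so these ratios carry no test. Transport motors had a median axonal over somatic log2 ratio of -0.68, a 0.624-fold level, with 15 of 19 below 0. Dynein-1 chains lay close together between -1.48 and -1.30, dynactin had a median of -1.23 and dynein light chains one of -2.10. Mitotic kinesins had a median of 0.46, with 3 of the 10 measured in both below 0, and other kinesins one of 0.71, but with a mean of at least 10 asked for in both compartments the mitotic median was -0.32 over 2 genes.

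Single motors departed from their class in these ratios. Kif1c stood at 0.18 and Kif13a at 0.34, whereas Kif3a and Kif3b stood at -1.54 and -1.55. Kif1a stood at -0.09, Dync1h1 at -0.87 and Kif5c at -1.30, so the heavy chains found by Entrez identifier did not lie together either. Dynlrb1 had the lowest ratio of all members, -2.58. Klc3 had the highest, 6.19, resting on a somatic mean of 0.168 normalised counts, and Kif12 and Kif2b had axonal reads with none in soma. The ratio fell with abundance over all genes with a symbol, from a median of 1.30 at somatic means of 1 to 10 through -0.30 at 10 to 50 and -0.76 at 50 to 100 to -1.15 at 100 to 1000.

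**Figure D4:**
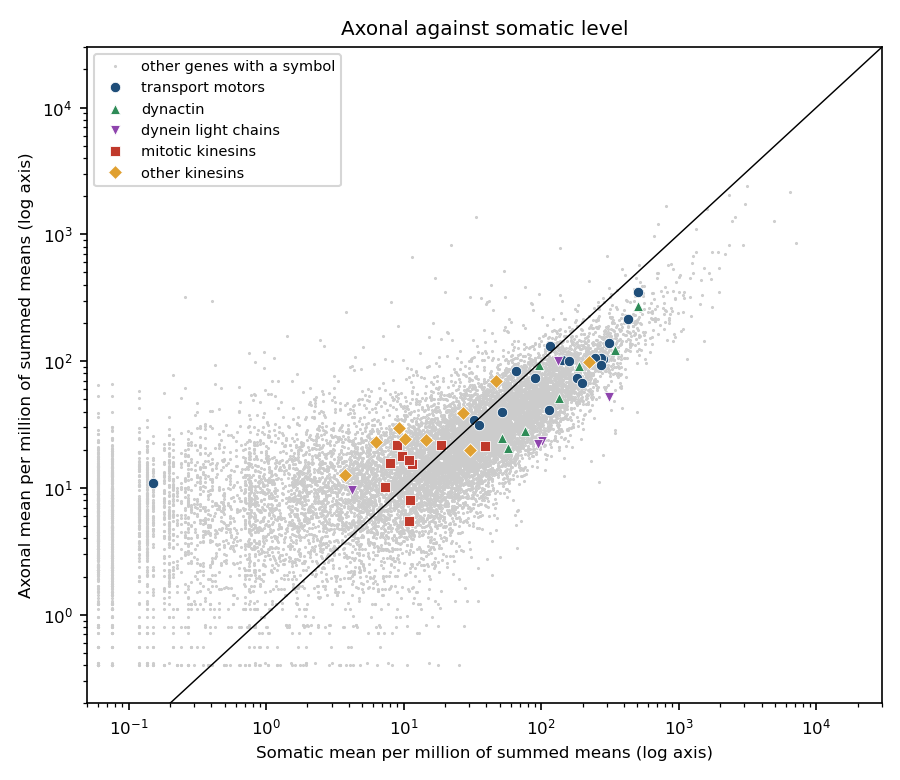
Axonal (vertical) against somatic (horizontal) mean of each gene, both scaled to the same total of summed means of genes with a symbol (log axes), for 5 classes of motor genes (coloured marks) and the other genes with a symbol (grey); the line marks equal levels. Transport motors lie mostly below the line (15 of 19), mitotic kinesins mostly above it (3 of 10 below), and the lone transport motor at the far left is Klc3, with a somatic mean of 0.168 normalised counts.

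In soma the median deposited log2 fold change was -0.09 for transport motors, -0.20 for mitotic kinesins (0.039 for those with a mean of at least 10), 0.08 for dynactin, 0.07 for dynein light chains and -0.11 for other kinesins. The smallest unadjusted p of a member was 0.322 (Kif22, DESeq2). The second row of Kif22, found by Entrez identifier, had an unadjusted p of 0.518 (DESeq2) in soma, and its sides overlapped there. Each side of the somatic comparison held 1 deep and 1 shallow library, with size factors of 2.97 and 0.297 for the positive-side libraries, against 3.74 and 0.320. Between deep and shallow libraries, 9 of 47 members with a mean of at least 10 differed at least 2-fold the same way on both sides (19.1%, against 19.6% of all 11044 genes). Between the 2 deep libraries, which are one of each side, 0 of 47 members differed 2-fold, against 0.860% of all genes, and between the 2 shallow ones 4 did (8.51%), against 14.4%.

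Of the 4 dynein light chains with a somatic mean of at least 10, 3 were among these 9. Dynlrb1 had 491 and 586 normalised counts in the deep somatic libraries (positive, then negative side) and 155 and 150 in the shallow ones. Dynll2 went the other way, with 66.7 and 58.0 in the deep and 259 and 210 in the shallow libraries. Kif21b had 79.8 and 76.7 against 253 and 303. Dynlt1, Dctn6, Dync1li1 and Dync2li1 were higher in the deep libraries, and Kif26a and Kif7 in the shallow ones. For Dynlrb1, Dynll2 and Kif21b the gap between the libraries of a side was thus far larger than the gap between the sides. The source of the depth split is not given in the labels, and its part in the somatic fold changes was not tested beyond these values.

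**Figure D5:**
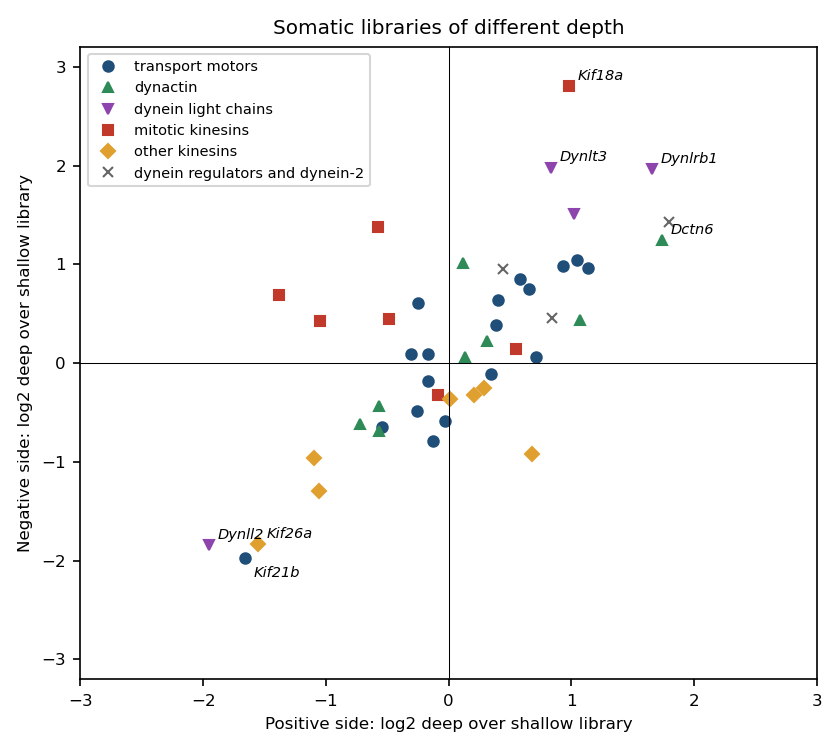
Log2 ratio of the deep over the shallow somatic library on the positive side (horizontal axis) and on the negative side (vertical axis) for the motor genes whose somatic mean reached 10, 1 point per gene coloured by class. Dynlrb1 (491 and 586 in the deep, 155 and 150 in the shallow libraries) and Dynll2 (66.7 and 58.0 against 259 and 210) lie at opposite ends of the diagonal.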

How the data were processed

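Axonal and somatic RNA of 8 samples (4 groups of 2) was described from 2 tables, 1 per compartment. The submitters' processing notes name DESeq2, SAMtools, TopHat2 and Trim Galore without versions. For build, annotation and read counter the entry is "not given in the sources used here". Per the file headers, the authors deposited a mean normalised count (a signal, scaled by size factors), log2 fold changes and their standard errors, a Wald score, a p-value and a Benjamini-Hochberg adjusted p-value. No column holds a single library (0 columns of per-sample values were left unused). Calls are the authors' adjusted p under 0.05 (DESeq2), so no count test was run here.

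Reads per library were recovered by writing each mean under 1000 as 4 whole read counts times fixed units per library. Genes with 1 read in all gave these units and, through the sign of their fold change, the side of a library. Below a mean of 100, 100% of values had 1 solution and 0% of shifted decoys had any. At 500 to 1000, 12.8% of axonal and 6.85% of somatic decoys had one. The recovery was tested on simulated data. Read counts without molecular identifiers are not independent molecules, and the precision of a value is limited by its reads. Size factors in axons were 1.32 and 1.28 for the positive-side libraries, against 0.952 and 0.740 for the negative-side ones.

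The difference between compartments was tested as the difference of the log2 fold changes over the root of the summed squared standard errors (two-sided normal p, Benjamini-Hochberg over 18406 genes). Some deposited log2 fold changes were smaller in size than ratios of recovered counts, as for Kif11 in axons (-2.59 against -3.49) and Kif22 in soma (0.58 against 1.17). Whether the authors' fit shrank them, and by how much in each compartment, is not given in the sources used here. The test did not allow for it. Named genes are the members with an adjusted p in axons or a call, in each class the 3 of highest axonal mean and the 2 of largest fold change with a mean of at least 10, and mitotic kinesins with a somatic mean of at least 10. Other members, and genes found by Entrez identifier, were named after their values were seen. The members and lists were chosen with earlier results of these data known. Python 3.11.15, numpy 2.4.6, pandas 2.3.3, scipy 1.17.1, numba 0.67.0 and matplotlib 3.10.9 were used. Alternatives were other sets for adjustment, a filter on means, centring on well-expressed genes, recovered ratios with a pseudocount of 0.5 and leaving out each library.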

Additional observations from a re-analysis of the deposited data

How the results depend on the processing

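The count of members called fell from 1 to 0 when p-values were adjusted over all genes with reads and to 0 when adjusted over genes with a mean of at least 10, settings that called 52 and 81 of all genes against 304. Kif1c stayed called after centring on genes whose somatic mean reached 100 (log2 fold change 1.49, adjusted p = 0.0462, DESeq2 values). Its recovered log2 ratio ran from 1.70 to 2.36 as each library was left out. That ratio and the centred class medians were chosen after seeing the data. With that centring the medians of transport motors and other kinesins moved to -0.27 and -0.79 in axons, and these axonal log2 fold changes changed sign: Dctn1 -0.33, Dctn6 -0.29, Klc4 -0.36, Kif5a -0.27, Kif21a -0.024, Kif3b -0.11, Kif18a -0.25, Kif2b -0.25 and Kifc1 -0.35. So did these axonal minus somatic differences: Actr1a -0.15, Actr1b -0.026, Dctn6 -0.22, Dynll2 -0.16, Kif5a -0.11, Kif21a -0.029, Kif21b -0.40, Kif3b -0.082, Kif3c -0.11 and Kif18a -0.056. With each library left out in turn, class medians were taken over ratios of recovered counts. Axonal medians ranged from 0.20 to 0.31 for transport motors, from -1.21 to -0.42 for mitotic kinesins and from 0.076 to 0.95 for dynactin. They ranged from 0.19 to 1.35 for dynein light chains and from -0.41 to 0.16 for other kinesins. Somatic medians ranged from -0.21 to 0.02, from -0.18 to -0.06, from 0.02 to 0.09, from -0.49 to 1.06 and from -0.64 to 0.15 for the same classes. The somatic median of mitotic kinesins was 0.039 with a mean of at least 10 and -0.43 as a recovered ratio. Axonal over somatic log2 levels were centred on another reference, the median of genes with a mean of at least 10 in both compartments (-0.49). So centred, they were -0.19 for transport motors, -0.73 for dynactin and 1.20 for other kinesins. The mitotic level with a mean of at least 10 in both compartments, not centred, was -0.32. The cause of these shifts was not tested. No paired analysis was possible because the deposited columns carry no replicate numbers and the recovered libraries cannot be tied to samples. A block by depth in soma was not run, and whether the authors' fit held such a term is not given in the labels. The smallest change that the reads per library could show was not measured.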
